A study of Homo sapiens with 4 samples.

Results

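The YAP/TEAD factors and targets are 10 genes, taken by symbol from the 60725 genes of the deposited count table: the coactivators YAP1 and WWTR1 (which encodes TAZ), the DNA-binding factors TEAD1 and TEAD4, and the target genes CCN1, CCN2, ANKRD1, AMOTL2, LATS2 and AXL. All 10 were found under 1 Ensembl identifier each, and all 10 were among the 15356 genes with enough reads to be tested. They were measured by RNA-seq of polyA RNA in RPE1 SunTag cells, an hTERT-RPE1 line (human retinal pigment epithelial cells immortalised with telomerase) that expresses the SunTag system in every sample. The 2 groups were a control, which received the Silencer Select Negative Control No. 2 siRNA, and a TOP2B knockdown, which received the Dharmacon smart pool against TOP2B. Each had 2 libraries, described as independent biological replicates. Both groups received 10 nM siRNA in a first transfection and again in a second one at 48 h, and the cells were collected on day 5, when 72 h had passed since the second. The siRNA reagent and the loss of TOP2B changed together between the groups, and their effects cannot be told apart. The series asked whether gene expression changed when TOP2B, a topoisomerase that relaxes and untangles DNA, was depleted.

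In the Hippo pathway the kinases STK3 and STK4, with their scaffold SAV1, activate the kinases LATS1 and LATS2, with their cofactors MOB1A and MOB1B. Active LATS kinases phosphorylate YAP and TAZ and hold them in the cytoplasm. Unphosphorylated YAP and TAZ enter the nucleus, bind the TEAD proteins and switch on genes for secreted matrix proteins, cytoskeletal proteins and growth receptors. The activity of YAP and TAZ is set largely by their location and modification, which RNA levels do not measure. Some of their targets, LATS2 and AMOTL2 among them, encode proteins that restrain YAP and TAZ and so close a feedback loop. In epithelial cells in culture the pathway is known for reading cell density, cell shape and the stiffness of the substrate.

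The sequence that TEAD proteins recognise is commonly given as GGAATG, or CATTCC on the other strand. It was searched on both strands, with overlapping matches kept, in the RefSeq promoters of the members (GRCh38.p14, 250 bases before to 50 after each listed start). Promoters of 7 of the 10 members were held in the table used here (YAP1, WWTR1, CCN2, ANKRD1, AMOTL2, LATS2 and AXL). Of all 35116 promoters of that length, 14% held at least 1 match, 1.37% at least 2 and 0.128% at least 3. CCN2 held 3 matches, which began 169, 104 and 95 bases before the start, and ANKRD1 held 2, which began 220 and 128 bases before it. The 250 bases before the start of these genes are shown because they held the most matches among the members and because CCN2 was called higher while ANKRD1 was not called. Capitals mark the matches. The CCN2 stretch is chr6:131951373-131951622 and the ANKRD1 stretch chr10:90921088-90921337, both on the minus strand.
CCN2: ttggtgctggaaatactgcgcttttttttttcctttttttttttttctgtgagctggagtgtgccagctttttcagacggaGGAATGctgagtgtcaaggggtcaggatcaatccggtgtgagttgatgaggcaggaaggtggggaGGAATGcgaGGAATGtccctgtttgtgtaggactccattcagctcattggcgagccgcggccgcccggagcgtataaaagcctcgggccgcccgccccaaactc
ANKRD1: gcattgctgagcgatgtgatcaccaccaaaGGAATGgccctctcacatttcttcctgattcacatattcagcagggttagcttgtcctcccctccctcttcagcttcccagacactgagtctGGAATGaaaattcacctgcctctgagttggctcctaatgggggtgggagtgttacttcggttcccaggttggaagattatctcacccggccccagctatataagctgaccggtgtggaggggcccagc

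Single matches were found before the listed start of YAP1 (chr11:102110273-102110302, plus strand), before the second of the 2 starts listed for AMOTL2 (chr3:134374499-134374528, minus strand) and before the second of the 2 starts listed for AXL (chr19:41226531-41226560, plus strand). They are shown as 30-base windows with the match in capitals, as a comparison with CCN2 and ANKRD1. LATS2 held 1 match 10 bases into the transcribed sequence, and neither start listed for WWTR1 held any. A match of these letters is a description of the sequence and not a site of binding.
YAP1: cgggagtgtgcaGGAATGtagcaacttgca
AMOTL2: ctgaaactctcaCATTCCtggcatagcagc
AXL: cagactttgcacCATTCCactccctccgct

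Library totals ran from 20310259 to 23887013 counts, so that a value of 1 CPM (the count relative to the TMM-scaled library size) rested on 20.2 to 23.9 reads. TOP2B itself had 155 and 144 CPM in the control libraries and 15.3 and 13.3 CPM in the knockdown libraries, in the direction the labels give for all 4. Of 10 marker genes of retinal pigment epithelium, RPE65, TYR, RGR and TTR had 0 counts in all libraries and RLBP1 and LRAT at most 5, while MITF and OTX2 were present at 38.2 to 44.8 CPM and 11.2 to 13.4 CPM. BEST1 and PMEL lay between 0.307 and 1.46 CPM. The epithelial genes KRT8 and KRT18 lay between 266 and 1347 CPM, CDH1 had at most 2 counts and EPCAM had 0. None of the RPE markers tested was called. Of 4 mesenchymal genes FN1, the gene of the matrix protein fibronectin, was called higher (control libraries 1915 and 1433 CPM, knockdown libraries 4166 and 3146 CPM), while VIM (938 to 1019 CPM), CDH2 (248 to 348 CPM) and COL1A1 (4.65 to 7.41 CPM) were not called.

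Across the 10 genes, AXL, CCN2 and WWTR1 rose and LATS2 fell after TOP2B depletion, at a Benjamini-Hochberg threshold of 0.05 across the whole table (edgeR, quasi-likelihood). The other 6 members (YAP1, TEAD1, TEAD4, CCN1, ANKRD1 and AMOTL2) did not pass the test. Of all 15356 genes tested 10.8% were called, 6.66% higher and 4.18% lower. The median log2 fold change was -0.02 over the 10 members, with 5 above 0, and -0.0029 over all genes. In 8 of the 10 members the libraries of the groups did not overlap, 4 higher and 4 lower in the knockdown. Of all genes tested 54.3% showed no overlap, 27.7% higher and 26.6% lower. In bulk RNA a change in the number of cells that express a gene and a change of its RNA per cell cannot be told apart.

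**Figure D1:**
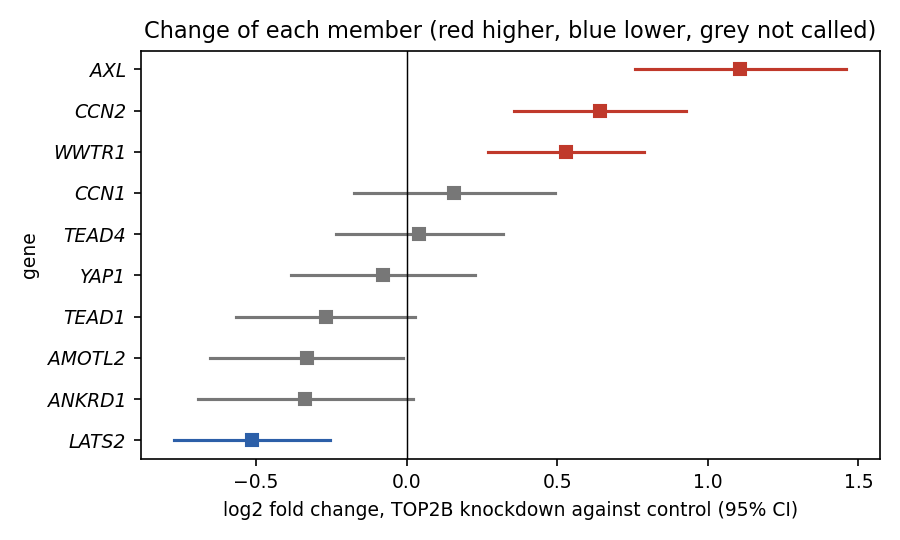
The plot shows the log2 fold change of each of the 10 genes (x axis, TOP2B knockdown against control, squares) with its 95% confidence interval from edgeR (lines). AXL, CCN2 and WWTR1 (red) were called higher and LATS2 (blue) lower, and the intervals of the grey genes other than AMOTL2 span 0.

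Among the coactivators, YAP1 (ENSG00000137693, chr11:102110447-102233424, plus strand) had 222 and 254 CPM in control replicates 1 and 2 and 212 and 239 CPM in the knockdown replicates. The groups overlapped, with replicate 2 above replicate 1 in either condition. On the log2 scale the difference was -0.08 (standard error 0.14, adjusted p = 0.770, edgeR), with a 95% interval from -0.38 to 0.23. A difference of YAP1 RNA was not called, and these bounds are not a limit of detection.

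WWTR1 (ENSG00000018408, chr3:149517235-149736714, minus strand), the gene of the YAP paralogue TAZ, had 60.4 and 59.7 CPM in control and 83.4 and 89.9 CPM in knockdown cells. Both knockdown libraries lay above both controls, and the gap was larger than the difference within either group. It rose by 0.53 on the log2 scale (standard error 0.12, adjusted p = 0.0189, edgeR), to 144% of the control mean. The call was lost in 3 of 4 fits without one library. In these fits, in which the lone sample of a group is assumed to vary like the other group, the adjusted p of WWTR1 was 0.0614 without control replicate 1, 0.0859 without control replicate 2, 0.0299 without TOP2B knockdown replicate 1 and 0.116 without TOP2B knockdown replicate 2. The log2 fold change stayed between 0.46 and 0.59 in these fits.

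The coactivators were also compared within each library. Per kilobase of exon, the ratio of WWTR1 to YAP1 was 0.205 and 0.178 in the control libraries and 0.298 and 0.284 in the knockdown libraries, 1.52 times as high on average. The 2 ranges did not overlap, and an exact two-sided permutation test over the 4 libraries gave p = 0.333, the smallest p that 2 against 2 libraries allow. All 7 ratios computed gave this p, which adjustment over them leaves as it is. YAP1 was still the more abundant transcript in every library.

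The DNA-binding factors did not pass the test. TEAD1 (ENSG00000187079, chr11:12674421-12944737, plus strand) had 383 and 387 CPM in control and 333 and 306 CPM in knockdown cells. Its groups did not overlap, but the difference of -0.27 on the log2 scale (standard error 0.13, adjusted p = 0.236, edgeR) was not called. TEAD4 (ENSG00000197905, chr12:2959330-3040676, plus strand) had 26.9 and 29.5 CPM in control and 28.6 and 29.5 CPM in knockdown cells, which overlapped. Its log2 fold change was 0.04, with a 95% interval from -0.24 to 0.32 (adjusted p = 0.868, edgeR).

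All 4 TEAD genes encode factors that bind the same DNA sequence, and the other two were read beside the members. TEAD2 had 20.1 and 23.1 CPM in control and 26.8 and 30.002 CPM in knockdown cells (log2 fold change 0.40, adjusted p = 0.0973, edgeR), and TEAD3 had between 42.7 and 44.3 CPM in the 4 libraries. Per kilobase of exon, TEAD1 made up 52.0% and 50.6% of the summed TEAD signal in the control libraries and 46.6% and 43.4% in the knockdown libraries. The share of TEAD2 was 9.79% and 10.8% against 13.5% and 15.3%, while TEAD4 contributed between 17.2% and 19.7%. The sum over the family was 68.8 and 71.4 RPKM (CPM per kilobase of exon) in control and 66.7 and 66.0 RPKM in knockdown cells. The VGLL proteins compete with YAP and TAZ for TEAD or act with it. VGLL3 had a log2 fold change of 0.48 (adjusted p = 0.0590, edgeR) and VGLL4, which shares 23.8% of its exon bases with other genes, one of -0.38 (adjusted p = 0.0686, edgeR). VGLL1 and VGLL2 had at most 2 counts in any library and were not tested.

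**Figure D2:**
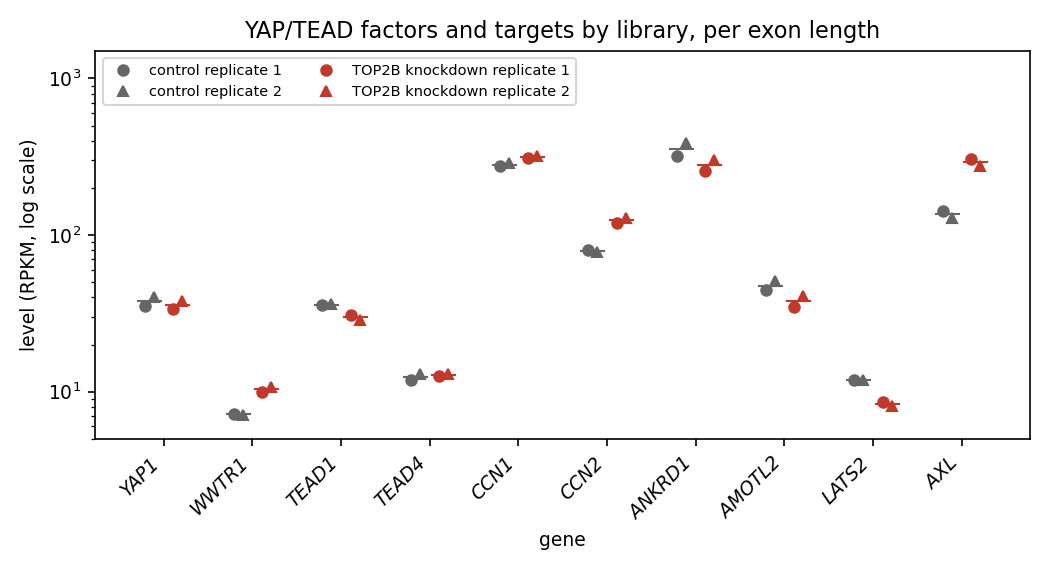
The level of each gene is plotted per library in RPKM on a log scale (y axis), with circles for replicate 1, triangles for replicate 2 and bars for the group means. The knockdown points of AXL, CCN2 and WWTR1 lie above their controls, and those of LATS2 below.

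The targets covered a wide range of levels. On the RPKM scale, the control means were 354 ± 47.9 for ANKRD1, 282 ± 6.58 for CCN1, 136 ± 8.90 for AXL, 79.4 ± 1.47 for CCN2, 47.6 ± 4.54 for AMOTL2 and 11.9 ± 0.0226 for LATS2 (SD, n = 2). The factors were lower than most targets, with 37.7 ± 3.53 RPKM for YAP1, 36.0 ± 0.265 for TEAD1, 12.4 ± 0.805 for TEAD4 and 7.19 ± 0.0609 for WWTR1 (SD, n = 2). In the control libraries YAP1 overlapped with TEAD1, and TEAD4 with LATS2, so that their order is not resolved. In the knockdown the first 3 places passed to CCN1 (314 ± 6.78 RPKM), AXL (292 ± 20.6 RPKM) and ANKRD1 (280 ± 31.0 RPKM; SD, n = 2), of which AXL and ANKRD1 overlapped. WWTR1 and LATS2 exchanged places at the lower end, with 10.4 ± 0.545 RPKM for WWTR1 and 8.32 ± 0.366 RPKM for LATS2 (SD, n = 2). These places depend on the exon lengths used. By mean CPM, CCN1 was first in control (1041, against 696 for AXL and 633 for ANKRD1). In the knockdown AXL was first by mean CPM (1500, against 1162 for CCN1).

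CCN1 and CCN2 encode secreted matricellular proteins of one family and are the targets most often used as readouts of YAP activity. CCN2 (ENSG00000118523, chr6:131948176-131951372, minus strand) had 188 and 183 CPM in control and 278 and 301 CPM in knockdown cells. Both knockdown libraries were above both controls by more than the replicates differed. The gene rose by 0.64 on the log2 scale (standard error 0.13, adjusted p = 0.0128, edgeR), or 1.56-fold. In fits without one library the log2 fold change of CCN2 ranged from 0.57 to 0.70, and its adjusted p was 0.0425 without control replicate 1, 0.0721 without control replicate 2, 0.0246 without TOP2B knockdown replicate 1 and 0.0889 without TOP2B knockdown replicate 2.

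CCN1 (ENSG00000142871, chr1:85580761-85584589, plus strand) had 1024 and 1059 CPM in control and 1144 and 1179.9 CPM in knockdown cells. The groups did not overlap, yet the log2 fold change of 0.16 (standard error 0.15, adjusted p = 0.553, edgeR) was not called, with a 95% interval from -0.18 to 0.49. Per kilobase of exon the ratio of CCN2 to CCN1 was 0.291 and 0.274 in the control libraries and 0.384 and 0.404 in the knockdown libraries. These ranges did not overlap either (exact two-sided permutation p = 0.333, the smallest possible with 2 against 2 libraries).

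AXL (ENSG00000167601, chr19:41219223-41261766, plus strand), a receptor tyrosine kinase for the ligand GAS6, had the largest change of the 10 genes. It had 728 and 664 CPM in control and 1575 and 1426 CPM in knockdown cells. Each knockdown library was far above each control. The rise was 1.11 on the log2 scale (standard error 0.16, adjusted p = 0.00281, edgeR), or 2.16-fold, and 98.0% of the genes tested had a lower fold change. The call held in each of the 4 fits without one library, with a log2 fold change of 1.04 to 1.18 and an adjusted p of at most 0.00769.

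ANKRD1 (ENSG00000148677, chr10:90912096-90921087, minus strand), an ankyrin repeat protein of muscle and stretched cells, had 572 and 694 CPM in control and 462 and 541 CPM in knockdown cells. Replicate 2 was above replicate 1 in either condition, and the higher knockdown library lay just under the lower control library. The log2 fold change was -0.34 (standard error 0.16, adjusted p = 0.217, edgeR), which did not pass. It ranged from -0.47 to -0.19 in the fits without one library.

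AMOTL2 and LATS2 encode restraints on YAP and TAZ that are themselves induced by them. AMOTL2 (ENSG00000114019, chr3:134355347-134375479, minus strand), an angiomotin that binds YAP, had 287 and 329 CPM in control and 225 and 264 CPM in knockdown cells. The groups did not overlap and the replicates shared the offset seen in ANKRD1. The log2 fold change of -0.33 (standard error 0.14) had an unadjusted p of 0.0441 and did not pass after adjustment (adjusted p = 0.175, edgeR).

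LATS2 (ENSG00000150457, chr13:20973036-21061586, minus strand), a kinase that inactivates YAP and TAZ, had 66.7 and 66.5 CPM in control and 48.1 and 45.2 CPM in knockdown cells. The replicates lay close together in either condition and the groups were apart. LATS2 fell by 0.51 on the log2 scale (standard error 0.12, adjusted p = 0.0210, edgeR), to 70.0% of the control mean. Its log2 fold change was between -0.55 and -0.48 in all fits without one library, but the call was lost in each of them, with an adjusted p of 0.0618 without control replicate 1, 0.0668 without control replicate 2, 0.0589 without TOP2B knockdown replicate 1 and 0.1098 without TOP2B knockdown replicate 2. Its paralogue LATS1 had 52.4 and 48.6 CPM in control and 40.1 and 38.9 CPM in knockdown cells and was not called (log2 fold change -0.36, adjusted p = 0.0865, edgeR).

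**Figure D3:**
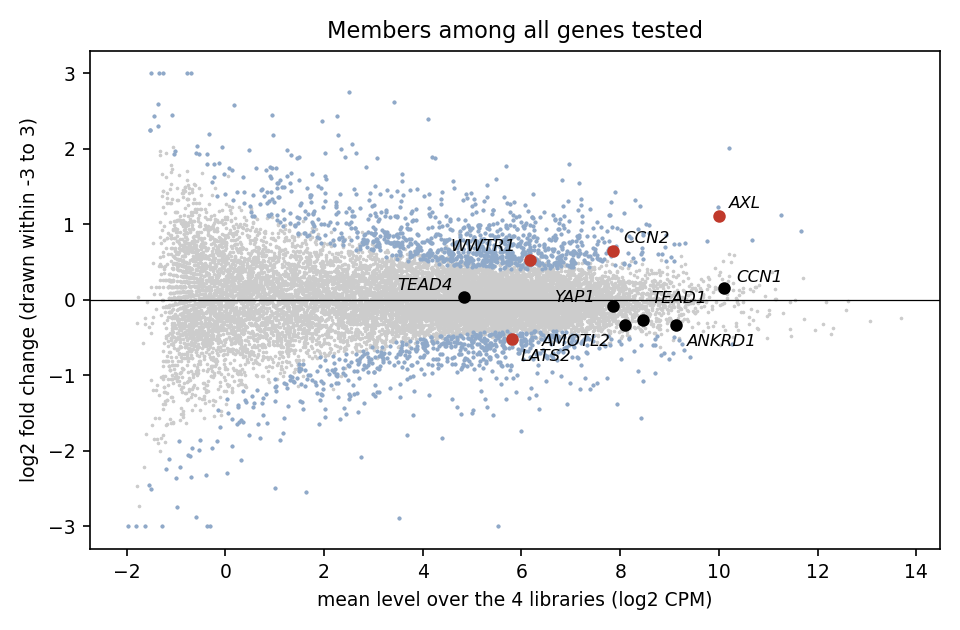
Each dot is a gene tested, by its mean level in log2 CPM (x axis) and its log2 fold change (y axis, drawn within -3 to 3), with called genes in blue. The 10 labelled genes lie in the middle and upper range of expression, red where called, and AXL is the one furthest from 0.

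Where exons of different genes overlap, how reads in the shared bases were assigned is not given in the sources used here. Of the exon bases of CCN2 11.9% overlap LINC01013, of YAP1 10.1% overlap other annotated genes and of WWTR1 9.05% overlap WWTR1-AS1. These partners had at most 3 counts (LINC01013), 39 counts (ENSG00000277459 at YAP1) and 10 counts (WWTR1-AS1) in any library. CCN2, YAP1 and WWTR1 each had at least 1360 counts. Reads in shared bases that were counted for neither gene would not show in these values.

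A 6-base word, GCAACC, was known from earlier results of these libraries to be more frequent in the 3′ UTRs of genes that rose, and it was looked up in the members. It was present in the annotated 3′ UTR of 2 of the 10 members, WWTR1 and AXL, both of which were called higher, with 1 copy each. It was absent from the 3′ UTR of CCN2, the third called higher, and of LATS2. The 3′ UTR was 3570 bases long in WWTR1 and 1862 in AXL, against 1088 in CCN2 and 1834 in LATS2. Members without the word ranged from 198 bases (TEAD4) to 7515 bases (TEAD1). Among 12517 tested genes with an annotated 3′ UTR, 23.4% held the word, as did 39.1% of the 942 genes called higher and 19.6% of the 611 called lower. The word was picked for this difference in these same libraries, so that the shares are a description and not a test. They take no account of 3′ UTR length. The site of AXL, the member with the largest change, is shown with the word in capitals. It lies at chr19:41260377-41260406 on the plus strand. In the 3′ UTRs of 19231 genes of the count table, 1253 of 5565 copies of GCAACC (22.5%) directly followed the bases CTCACT. The AXL copy is one of these, so that this stretch is not particular to AXL.
AXL: tctcgcctcactGCAACCttcacctaccga

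Whether the word has a part in the rise of WWTR1 and AXL was not tested.

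The wider pathway was read from a list of 27 regulators of Hippo signalling, which includes LATS2 and AMOTL2. All 27 were tested, 2 were higher and 3 lower (18.5% called, against 10.8% of all genes), and their median log2 fold change was -0.02. Without LATS2 and AMOTL2, 2 of 25 were higher and 2 lower (16% called). The 2 that rose act on the kinase side of the pathway. STK3, the kinase MST2, had 7.68 and 7.11 CPM in control and 19.1 and 19.8 CPM in knockdown cells, a rise of 1.39 on the log2 scale (standard error 0.15, adjusted p = 0.00086, edgeR). MOB1A, the cofactor of LATS kinases, had 74.5 and 74.4 CPM in control and 161 and 189.98 CPM in knockdown cells, a rise of 1.24 (standard error 0.13, adjusted p = 0.000754, edgeR). Both calls held in all 4 fits without one library, and the 3′ UTR of either gene held 1 copy of GCAACC. The word was present in 11 of the 27 regulators (40.7%), of which 2 were called higher, 1 lower and the rest not called, and the median log2 fold change of these 11 was -0.012.

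The paralogues of STK3 and MOB1A did not pass the test. Their 3′ UTRs held 2 copies of GCAACC in STK4 and 1 in MOB1B. STK4 had 113 and 123 CPM in control and 118 and 117 CPM in knockdown cells, and MOB1B 43.5 and 47.3 CPM against 42.8 and 38.5 CPM. Per kilobase of exon the ratio of STK3 to STK4 was 0.0891 and 0.0757 in control and 0.213 and 0.222 in knockdown cells, and that of MOB1A to MOB1B 2.34 and 2.15 against 5.15 and 6.74. In either pair the knockdown libraries lay above both controls (exact two-sided permutation p = 0.333 each, the smallest possible).

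**Figure D4:**
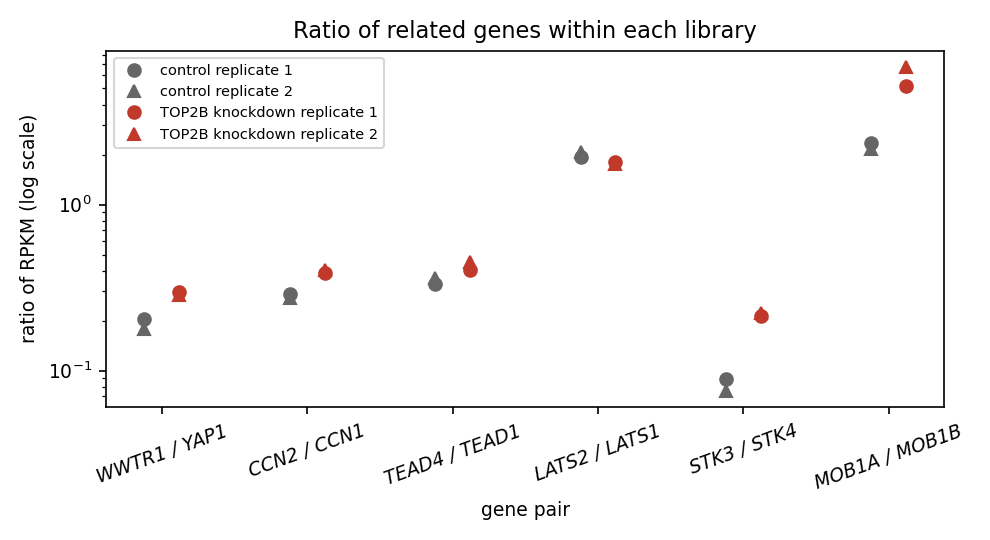
The ratio of the RPKM values of 6 pairs of related genes is plotted per library on a log scale (y axis), with grey for control and red for TOP2B knockdown, circles for replicate 1 and triangles for replicate 2. The ratios of WWTR1 to YAP1, CCN2 to CCN1, TEAD4 to TEAD1, STK3 to STK4 and MOB1A to MOB1B are higher in both knockdown libraries, and that of LATS2 to LATS1 is lower.

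Besides LATS2, the regulators that fell were AMOT and LIMD1. AMOT, an angiomotin that retains YAP outside the nucleus, fell by 0.54 on the log2 scale (adjusted p = 0.0229, edgeR), from 62.4 and 55.9 CPM to 42.7 and 38.4 CPM. LIMD1, a LIM domain protein that holds LATS kinases back, shares 24.9% of its exon bases with other annotated genes and is uncertain to that extent. It fell by 0.47 (adjusted p = 0.0351, edgeR), from 108 and 122 CPM to 83.8 and 82.0 CPM. The call of AMOT was lost without control replicate 1 (adjusted p = 0.105, edgeR) and without TOP2B knockdown replicate 2 (0.111). That of LIMD1 was lost without control replicate 2 (0.260), TOP2B knockdown replicate 1 (0.139) and TOP2B knockdown replicate 2 (0.144). The scaffolds SAV1, with 31.9% of its exon bases shared with other genes, and WWC1 had log2 fold changes of 0.50 and -0.48 that missed the threshold (adjusted p = 0.0632 and 0.0621, edgeR), and that of NF2, the upstream tumour suppressor merlin, was -0.02.

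A list of 22 YAP/TAZ target genes, which holds the 6 target members, was examined next. All 22 were tested, 3 were higher and 2 lower (22.7% called), and their median log2 fold change was 0.11. Without the 6 members, 1 of 16 was higher and 1 lower (12.5% called, against 10.8% of all genes). FJX1, a kinase-like secreted protein related to Four-jointed, rose by 0.83 (standard error 0.12, adjusted p = 0.00269, edgeR), from 33.2 and 32.7 CPM to 60.3 and 57.0 CPM, and its call held in all 4 fits without one library. CCDC80, a matrix protein, fell by 0.49 (standard error 0.14, adjusted p = 0.0494, edgeR), from 663 and 633 CPM to 461 and 459 CPM. The call of CCDC80 was lost without any one of the 4 libraries (adjusted p between 0.191 and 0.317, edgeR) and missed by a little when genes under 100 counts on average were left out (0.0502). The word GCAACC was present in 9 of the 22 genes (40.9%), of which 2 were called higher and 1 lower. Of the called genes of the list, AXL, FJX1 and CCDC80 held it in the 3′ UTR, the last of them with 3 copies, and CCN2 and LATS2 did not.

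**Figure D5:**
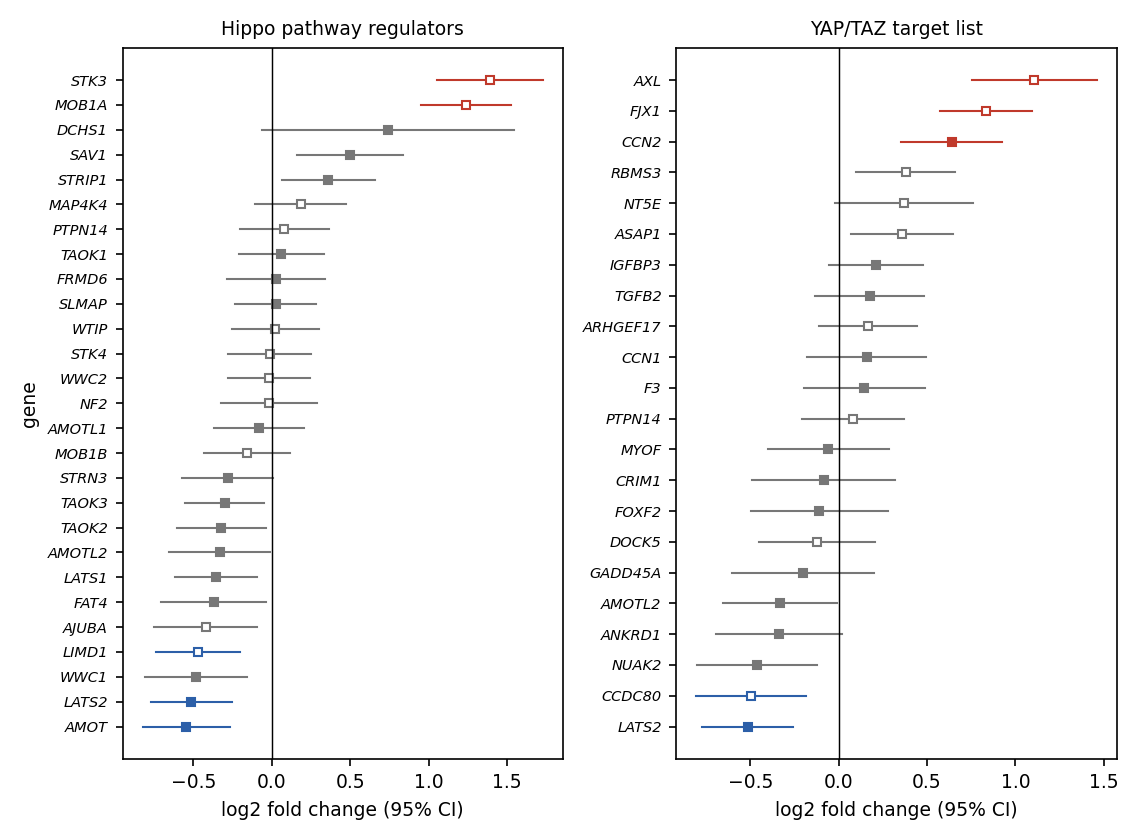
The log2 fold change (x axis) of the 27 Hippo pathway regulators and of the 22 genes of the YAP/TAZ target list is plotted with its 95% confidence interval, red for genes called higher, blue for lower and grey for not called. Open squares mark genes with GCAACC in the annotated 3′ UTR, among them STK3, MOB1A, AXL and FJX1 at the upper end and LIMD1 and CCDC80 at the lower end.

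CCN1, CCN2 and ANKRD1 also respond to SRF, the serum response factor, with its actin-sensing coactivators MRTFA and MRTFB. Of 16 genes of an actin and SRF list 15 were tested, 1 was higher and 1 lower (13.3% called, against 10.8% of all genes). The median log2 fold change of the 15 was 0.06. FHL1, a LIM domain protein of the cytoskeleton, rose by 0.53 (standard error 0.14, adjusted p = 0.0399, edgeR), from 15.3 and 17.3 CPM to 22.4 and 24.7 CPM. The call of FHL1 was lost without control replicate 1 (adjusted p = 0.184, edgeR) and without TOP2B knockdown replicate 2 (0.192), and with the Wald test of DESeq2 (0.0651). TAGLN, an actin-binding protein, fell by 1.32 (standard error 0.19, adjusted p = 0.0032, edgeR), from 8.06 and 9.56 CPM to 3.49 and 3.57 CPM, but 47.8% of its exon bases are shared with other annotated genes, so that its value is uncertain. SRF, MRTFA and MRTFB had log2 fold changes of 0.23, -0.09 and 0.20 and did not pass the test.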

How the data were processed

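Each of the 4 libraries was 1 sample of the series, grouped by its title. Per the methods and the submitters' processing notes, the authors checked single-end 65-bp reads with FastQC 0.11.6, aligned them to GRCh38 with STAR 2.5.4a and took gene counts during mapping with Gencode v24. The deposited values are these raw counts. Each column is present a second time with identical values, and these 4 extra columns were not used. Stranded paired-end data are named in the column headers, against single-end reads in the methods, and whether counting used strand is not given in the sources used here.

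Genes that reached 10 counts in 2 or more of the libraries entered edgeR 4.0.16 in R 4.3.3 (TMM, glmQLFit and glmQLFTest, a model of condition alone, Benjamini-Hochberg adjustment over 15356 genes, threshold 0.05). Standard errors were derived from the quasi-likelihood F, and 95% intervals reflect the spread between these libraries only. Log2 CPM used a prior count of 2. RPKM was CPM per kilobase of the union of exons. Symbols, positions, exon overlaps and 3′ UTRs of canonical transcripts came from GENCODE v44 on GRCh38, which held 56558 of the 60725 identifiers, and promoters from RefSeq. The genes named were the members, TOP2B, the TEAD and VGLL families, the RPE, epithelial and mesenchymal markers, every called gene of the regulator, target and actin lists, and the 3 profiles nearest to the member that changed most. A few paralogues and scaffolds of the regulator list (LATS1, STK4, MOB1B, SAV1, WWC1, NF2) and SRF, MRTFA and MRTFB were named after their values were seen. Members and lists, written from general knowledge, were chosen with earlier results of these data known. Alternatives tried were library size alone, DESeq2 1.42.0 (its size factors, and its Wald test), a lighter filter of 1 count, a stricter one of 100 counts on average, a replicate block, and leaving out each library. The sequence around 1 3′ UTR site is not reported here. The scripts were tested on simulated data.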

Additional observations from a re-analysis of the deposited data

How the results depend on the processing

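The 3 rises (AXL, CCN2, WWTR1) and the fall of LATS2 were called under the size factors of DESeq2, library size alone, no filter, a filter at a mean of 100 counts and the Wald test of DESeq2. No other member was called under these 5 settings. Without one library, the members called ranged from 1 to 3 higher, and 0 were lower in any of the 4 fits. The log2 fold change changed sign in such fits for YAP1 (range -0.18 to 0.021, with 0.021 when control replicate 2 and 0.012 when TOP2B knockdown replicate 1 was left out) and TEAD4 (-0.022 without control replicate 1, range -0.022 to 0.11). TOP2B ranged from -3.48 to -3.30. In the same 4 fits the regulators called numbered 2 to 3 higher and 1 to 2 lower, the target list 2 to 3 higher and 0 lower, the actin list 0 to 2 higher and 1 to 2 lower, and all genes 697 to 987 higher and 467 to 534 lower.

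With no filter beyond 1 count, 985 genes were lower, as were 5 regulators, and 2 genes of the actin list were higher. With a mean of 100 counts, 1 gene of the target list was lower. With the Wald test of DESeq2, 5 regulators were lower, and the actin list had 0 higher and 2 lower. The causes were not tested.

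The replicate numbers come from the titles, and the study calls the replicates independent. Same-numbered libraries deviated together (correlation of deviations across genes 0.479). With the replicate block, 3440 genes were higher and 3346 lower. Among members 4 were higher and 4 lower, with TEAD1, CCN1, ANKRD1 and AMOTL2 added, and the regulators had 6 and 11, the target list 11 and 6 and the actin list 7 and 2. With 2 pairs, these numbers do not show that the libraries are paired. Every member had at least 595 counts in each library.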

Other observations

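AXL, the member with the largest change, was compared with 9486 genes of at least 10 mean CPM by the Euclidean distance between log2 CPM profiles over the 4 libraries, each centred on its mean. The nearest were CCNE2 (distance 0.0434), MFHAS1 (0.0470) and LTBP4 (0.0483), with log2 fold changes of 1.11, 1.13 and 1.10. In all, 46 genes lay within 0.2 of AXL. With 4 libraries, such a likeness is a description of these samples only.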
